A study of Mus musculus with 6 samples.

Results

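The genes described here make cholesterol and fatty acids, or control and export the product, and most are targets of the sterol regulatory element binding proteins (SREBPs). They are 35 named genes out of 23791 entries in a table of RNA-seq counts: 18 enzymes of sterol synthesis, 5 regulators and transport proteins, 9 enzymes of fatty acid synthesis and 3 targets of the liver X receptors (LXRs). The members were taken by gene name, with earlier results of these data known, and all 35 were in the table and passed the filter on low counts. The table covers 6 libraries of RM1, a prostate cancer line from C57BL/6 mice, in 4 groups. Bone (1 library) and lung (1 library) are RM1536 cells recovered from the femur and the lung of 1 mouse, 16 days after injection into the heart. The injected cells carried the dye PKH26, and the cells taken were those that had lost it (PKH-), which the labels call proliferating. RM1536 (libraries a and b) is RM1 labelled with eCFP and luc2, a fluorescent protein and a luciferase, and is a pool of clones 5, 3 and 6. RM1 (libraries a and b) is the parental line. Cells of all groups were sorted by FACS and expanded in DMEM with 5% serum until a flask was 85% covered, so bone and lung describe cells regrown in culture and not cells in the tissue.

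SREBPs are made as membrane proteins of the endoplasmic reticulum and are carried to the Golgi by Scap for cleavage when sterols are low. Insig1 holds Scap back when sterols are high. Srebf2 encodes the form that acts mainly on sterol genes, and Srebf1 the forms that act mainly on fatty acid genes. LXRs, which bind oxidised sterols, act in the opposite situation and switch on cholesterol export. Cultured tumour cells usually express both synthesis pathways, and serum supplies part of the sterol they need.

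Total counts ran from 22763835 to 30303566 a library, and single members had between 24 counts (Fdps in lung) and 95563 counts (Scd2 in RM1536 b). Levels are given as counts per 1e+06 counts (CPM), scaled by TMM normalization factors of 0.942 to 1.03. The epithelial marker Krt8 lay at 966 to 2366 CPM, while Epcam, another epithelial marker, did not exceed 1.33 CPM. Of 5 adipocyte markers, 3 were in the table. Adipoq did not exceed 0.0804 CPM, Cidec was at 0 throughout and Fabp4 reached 18.6 CPM in RM1 a. The 3 hepatocyte markers together did not exceed 0.132 CPM. Leukocyte markers summed to 6.1 CPM in bone and 4.22 CPM in lung. The sums were 0.322 and 0.259 CPM in RM1536 a and b, and 1.64 and 2.05 CPM in RM1 a and b. Of these markers, Lyz2 was at 2.68 CPM in bone and 2.88 in lung, and at 0 in the culture libraries. Laptm5 was at 2.41 CPM in bone and 0.276 in lung, and at 1.54 and 1.91 in RM1 a and b. Ptprc was at 0 in bone and lung. In bulk RNA, fewer cells of a type and less RNA per cell cannot be told apart. Library RM1536 b stood apart among the culture libraries, as described below, so the list medians that use RM1536, and some single members, are also given without it.

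The promoters of 4 members whose values open the results below are shown: Hmgcs1 and Acat2, which carry the core of the sterol response element, and Insig1 and Abca1, which stood highest in bone. The sequences are RefSeq's on GRCm38.p6, read 5′ to 3′ on the gene's own strand and ending at the annotated start. Bases that lie inside the GENCODE M21 gene were cut off. Capitals mark the sterol response element core (CACNCCAC) in Hmgcs1 and Acat2, and the E-box (CACGTG) in Insig1 and Abca1. Hmgcs1 is at chr13:119690101-119690350 on the plus strand, and Insig1 at chr5:28071162-28071362 on the plus strand. Acat2 is at chr17:12960748-12960975 on the minus strand, and Abca1 at chr4:53159896-53160145 on the minus strand.
Hmgcs1: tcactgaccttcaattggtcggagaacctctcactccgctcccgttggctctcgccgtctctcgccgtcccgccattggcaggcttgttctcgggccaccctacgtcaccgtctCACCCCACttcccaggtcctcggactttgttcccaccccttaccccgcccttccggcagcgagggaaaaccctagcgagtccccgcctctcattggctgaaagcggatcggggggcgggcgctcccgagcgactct
Acat2: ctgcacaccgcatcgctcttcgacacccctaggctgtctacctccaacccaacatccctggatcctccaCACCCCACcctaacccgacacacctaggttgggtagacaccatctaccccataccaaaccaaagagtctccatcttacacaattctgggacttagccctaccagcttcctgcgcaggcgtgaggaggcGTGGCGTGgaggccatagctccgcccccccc
Insig1: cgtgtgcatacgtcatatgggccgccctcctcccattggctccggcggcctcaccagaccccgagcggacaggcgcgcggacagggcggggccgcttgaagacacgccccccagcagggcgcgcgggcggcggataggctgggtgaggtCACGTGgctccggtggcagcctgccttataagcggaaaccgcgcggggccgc
Abca1: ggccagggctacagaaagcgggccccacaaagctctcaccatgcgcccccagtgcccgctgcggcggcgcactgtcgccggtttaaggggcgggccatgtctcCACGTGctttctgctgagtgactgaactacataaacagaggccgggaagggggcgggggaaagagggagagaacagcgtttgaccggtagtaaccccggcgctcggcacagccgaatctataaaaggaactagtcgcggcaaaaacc

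RefSeq promoters were found for 27 of the 35 members, 33 promoters in all, and 32851 promoters of all genes were searched in the same way over the 250 bases before the start, on both strands. The core CACNCCAC was in 3 member promoters, those of Hmgcs1, Acat2 and Insig1, which is 9.09% against 5.29% of all promoters. The Insig1 match lies in the stretch that was cut off. The same core with the letters AT before it was in 0 member promoters and in 0.192% of all. The E-box, which SREBPs can also bind and which other factors share, was in 6 member promoters (18.2%, against 6.02% of all): those of Abca1, Dhcr7, Hsd17b7, Insig1, Sc5d and Scap. The CCAAT box (CCAAT) was in 63.6% of member promoters, against 33.8% of all, and the Sp1 box (GGGCGG) was in 75.8%, against 32.7% of all. The LXR element, read as AGGTCA repeated in the same direction with 4 bases between, was in 0 member promoters and in 0.0152% of all. The motifs were searched by their exact letters, with no mismatch allowed. A match describes the sequence and not binding, and the lack of a match does not show that a site is absent.

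The members differed widely in level. Per kilobase of exon, Scd2, a desaturase that makes monounsaturated fatty acids, had the highest mean over the 6 libraries, 305 CPM per kb. Its paralogue Scd1 had 87.5, Acly, which makes cytosolic acetyl-CoA from citrate, had 86.9, and the fatty acid synthase Fasn had 80.0 CPM per kb. Insig1 followed with 74.4 and Srebf2 with 63.2 CPM per kb. The lowest were Abcg1, with 0.912, Fdps, with 1.38, and Acss2, with 1.59 CPM per kb.

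Among the enzymes of the mevalonate steps, lung was the lowest library throughout. Acat2, the thiolase that starts the route by joining acetyl-CoA units, was at 93.9 CPM in bone, 21.7 in lung, 94.4 and 309 in RM1536 a and b, and 126 and 52.3 in RM1 a and b. Hmgcs1, the synthase of the following step, was at 146 CPM in bone, 60.9 in lung, 173 and 324 in RM1536 a and b, and 434 and 220 in RM1 a and b. Both genes were lowest in lung, and bone lay below both RM1536 libraries. The mevalonate kinase Mvk was at 35.9 CPM in bone, 15.0 in lung, 37.5 and 85.6 in RM1536 a and b, and 41.1 and 23.4 in RM1 a and b. Phosphomevalonate kinase, Pmvk, was at 28.4 CPM in bone, 7.14 in lung, 23.2 and 53.5 in RM1536 a and b, and 43.4 and 31.6 in RM1 a and b. Mvd, the decarboxylase that yields the isoprene unit, was at 71.3 CPM in bone, 25.3 in lung, 49.0 and 152 in RM1536 a and b, and 57.4 and 31.7 in RM1 a and b. For these 3 enzymes RM1536 b was the highest library, and bone was nearer to RM1536 a than to b. Idi1, the isomerase of the isoprene unit, was at 137 CPM in bone, 40.1 in lung, 161 and 275 in RM1536 a and b, and 165 and 84.0 in RM1 a and b. Fdps, which builds farnesyl diphosphate, was at 7.81 CPM in bone, 0.947 in lung, 3.58 and 13.0 in RM1536 a and b, and 5.31 and 4.11 in RM1 a and b. Fdps was low for this pathway, and it has 4 processed pseudogenes 96.1% to 98.9% identical to its transcript, to which the authors' counting could have lost reads.

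Among the enzymes after farnesyl diphosphate, RM1536 b was the highest library throughout. Sqle, squalene epoxidase, was at 233 CPM in bone, 166 in lung, 227 and 391 in RM1536 a and b, and 204 and 169 in RM1 a and b. Cyp51, the lanosterol demethylase, was at 260 CPM in bone, 108 in lung, 240 and 334 in RM1536 a and b, and 233 and 184 in RM1 a and b. Both RM1536 libraries were above both RM1 libraries for these 2 enzymes. Nsdhl, which acts in the removal of the sterol's methyl groups, was at 62.7 CPM in bone, 30.5 in lung, 69.7 and 166 in RM1536 a and b, and 61.3 and 38.0 in RM1 a and b. Ebp, the sterol isomerase, was at 28.7 CPM in bone, 26.8 in lung, 41.3 and 63.8 in RM1536 a and b, and 28.8 and 22.9 in RM1 a and b. Ebp was the single sterol enzyme that was not lowest in lung. Dhcr7, the reductase of the last step, was at 68.5 CPM in bone, 30.3 in lung, 59.4 and 139 in RM1536 a and b, and 109 and 89.5 in RM1 a and b. The remaining members of the list, Fdft1 (squalene synthase), Lss (lanosterol synthase), Msmo1, Hsd17b7, Sc5d and Tm7sf2, ran from 4.54 CPM (Tm7sf2 in lung) to 209 CPM (Msmo1 in RM1536 b). All 6 were lowest in lung and highest in RM1536 b.

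Both SREBP genes varied less than most of the enzymes. Srebf2 was at 447 CPM in bone, 381 in lung, 387 and 522 in RM1536 a and b, and 525 and 461 in RM1 a and b. Srebf1 was at 264 CPM in bone, 151 in lung, 190 and 262 in RM1536 a and b, and 322 and 258 in RM1 a and b. Scap was at 81.5 CPM in bone, 87.3 in lung, 109 and 170 in RM1536 a and b, and 94.1 and 82.6 in RM1 a and b. Lung was the lowest library for both SREBP genes, and bone was the lowest for Scap. Insig1, the retention protein, was at 432 CPM in bone, 156 in lung, 194 and 181 in RM1536 a and b, and 252 and 166 in RM1 a and b. Its bone value was above every other library. Stard4, which moves sterol between membranes, was at 89.2 CPM in bone, 48.1 in lung, 80.4 and 187 in RM1536 a and b, and 98.0 and 61.7 in RM1 a and b, lowest in lung and highest in RM1536 b.

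The fatty acid enzymes had the same highest library as 17 of the 18 sterol enzymes. Fasn was at 1310 CPM in bone, 520 in lung, 776 and 1514 in RM1536 a and b, and 660 and 471 in RM1 a and b. Acaca, the carboxylase that makes malonyl-CoA, was at 176 CPM in bone, 99.4 in lung, 144 and 251 in RM1536 a and b, and 140 and 105 in RM1 a and b. Acly was at 481 CPM in bone, 203 in lung, 361 and 862 in RM1536 a and b, and 547 and 299 in RM1 a and b. For Fasn the lowest library was RM1 b and not lung. Scd2 was at 1637 CPM in bone, 825 in lung, 1462 and 3092 in RM1536 a and b, and 1752 and 1234 in RM1 a and b. Elovl6, which lengthens saturated fatty acids, was at 209 CPM in bone, 42.3 in lung, 116 and 267 in RM1536 a and b, and 225 and 117 in RM1 a and b. Fads2, a desaturase of polyunsaturated fatty acids, was at 129 CPM in bone, 43.1 in lung, 142 and 333 in RM1536 a and b, and 162 and 81.8 in RM1 a and b. Elovl6 and Fads2 had the widest ranges of the list. Its other members, Scd1, Fads1 and Acss2 (which makes acetyl-CoA from acetate), were also highest in RM1536 b, and Fads1 was lowest in RM1 b.

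**Figure D1:**
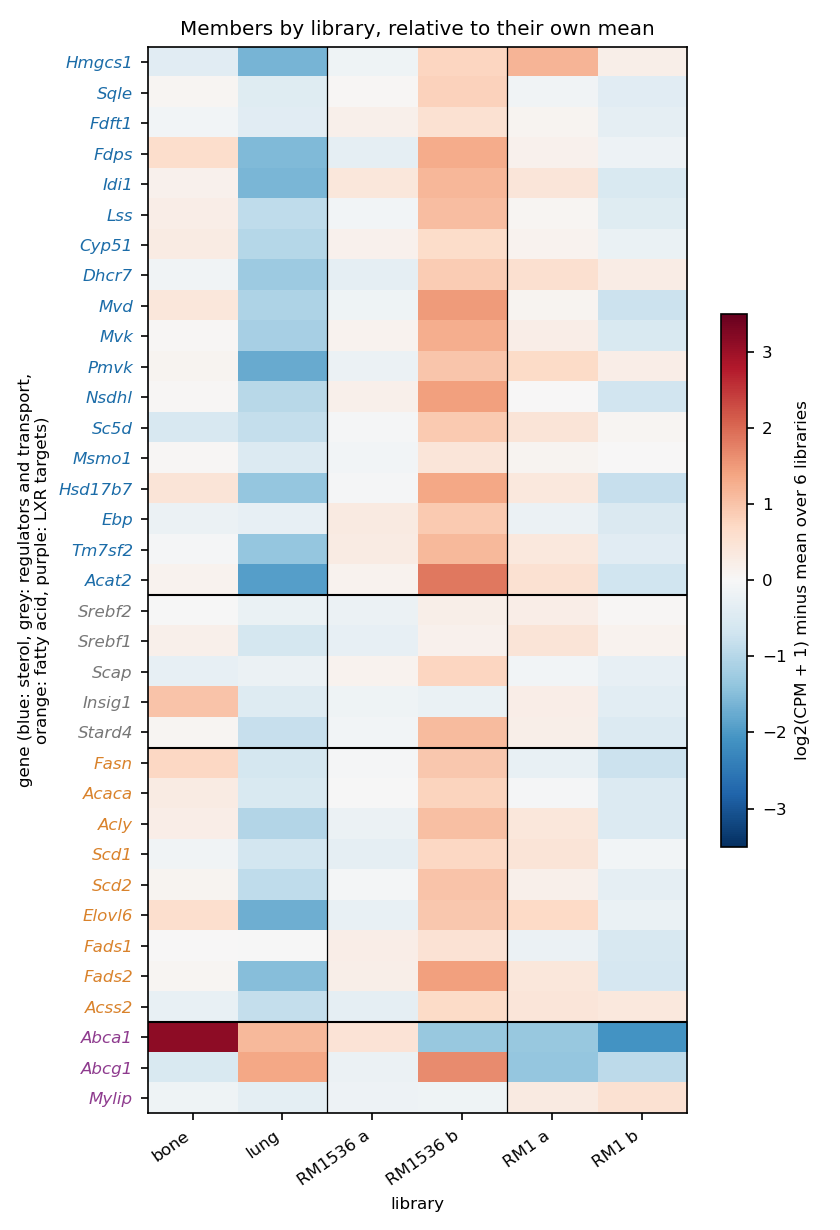
Level of each member in each library (columns: bone, lung, RM1536 a, RM1536 b, RM1 a, RM1 b), drawn as log2(CPM + 1) minus the gene's mean over the 6 libraries, with colours from blue (lower) to red (higher). RM1536 b is the highest library for 29 of the 35 members and lung is the lowest for 29 of the 35.

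RM1536 b was the highest of the 6 libraries for 17 of the 18 sterol enzymes (all but Hmgcs1) and all 9 fatty acid enzymes, and for 29 of all 35 members, against 20.9% of all 13832 genes tested. Lung was the lowest for 17 of the 18 sterol enzymes and 7 of the 9 fatty acid enzymes, and for 29 of all 35 members, against 20.9% of all genes tested. The heat map of members by library shows these as a red and a blue column, which Abca1 does not follow. Of the other LXR targets, Abcg1 was highest in RM1536 b but not lowest in lung. Mylip was lowest in lung but not highest in RM1536 b. Each gene was set against its own mean over the 6 libraries on the log2(CPM + 1) scale, and the median was taken over a list. The sterol median was then 0.06 in bone, −1.11 in lung, 0.00 and 1.03 in RM1536 a and b, and 0.19 and −0.39 in RM1 a and b. The fatty acid median was 0.09 in bone, −0.84 in lung, −0.07 and 0.93 in RM1536 a and b, and 0.39 and −0.47 in RM1 a and b. Both lists held the libraries in the same order, with the wider range in the sterol list. The 5 regulators and transport genes had a narrower range, from −0.46 in lung to 0.22 in RM1 a.

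Of the other library features examined, proliferation genes had their highest and lowest libraries in common with the enzymes. The median of 7 proliferation genes (Mki67, Pcna, Mcm2, Mcm5, Top2a, Ccna2 and Cdk1) was −0.02 in bone, −0.62 in lung, 0.16 and 0.79 in RM1536 a and b, and 0.21 and −0.54 in RM1 a and b. The median of 8 interferon-stimulated genes had another order, with −2.9 in bone, −1.67 in lung, 0.4 and −2.48 in RM1536 a and b, and 2.71 and 3.39 in RM1 a and b. Mitochondrially encoded genes took 1.83% of counts in bone, 1.95% in lung, 1.3% and 1.2% in RM1536 a and b, and 0.932% and 0.567% in RM1 a and b. The part of these features in the members' values was not tested.

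**Figure D2:**
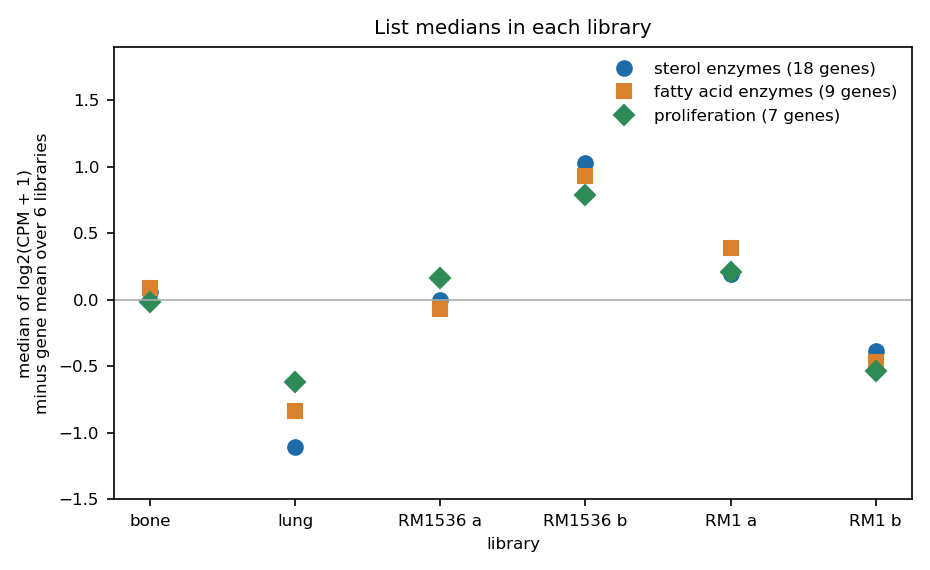
Median over the 18 sterol enzymes (circles), the 9 fatty acid enzymes (squares) and 7 proliferation genes (diamonds) of log2(CPM + 1) minus the gene's mean over the 6 libraries, for each library. All 3 medians are highest in RM1536 b (1.03, 0.93 and 0.79) and lowest in lung (−1.11, −0.84 and −0.62).

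Replicate libraries of 1 line differed in these genes. Between RM1536 b and RM1536 a, 33 of 35 members were higher in b, and 16 were at least 2-fold higher on the log2(CPM + 1) scale, against 1.39% of the 9879 genes with a mean of at least 5 CPM. The median difference was 1.06 for the 18 sterol enzymes, all higher in b, and 1.03 for the 9 fatty acid enzymes, all higher in b. Acat2 differed by 1.70, Mvd by 1.62, Fdps by 1.61 and Hsd17b7 by 1.39. Abca1 differed the other way, by −1.79, and Insig1 by −0.09. Between RM1 a and RM1 b the medians were 0.47 for the sterol and 0.51 for the fatty acid enzymes, with all 18 and all 9 higher in a. There, 2 members were at least 2-fold higher, Acat2 (1.25) and Hsd17b7 (1.17), against 1.38% of genes. Each of these is a comparison of single libraries without a test, and nothing in the labels tells if a and b were grown apart.

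The genes most alike across the 6 libraries came from both pathways. Pearson's r of log2(CPM + 1) was 0.998 for Fads2 with Acat2, 0.995 for Fads2 with Mvk, 0.994 for Acat2 with Mvk, 0.993 for Mvd with Lss and 0.993 for Fads2 with Tm7sf2. These are descriptions over 6 libraries, which share their depth and scaling and of which RM1536 b and lung lie at the ends.

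Cells recovered from the lung had the lowest level of nearly all sterol genes. In lung against RM1536, which asks how cells recovered from the lung compare with the line that was injected, all 18 sterol enzymes, all 9 fatty acid enzymes and all 5 regulators and transport genes lay lower than in both RM1536 libraries. This held for 33 of the 35 members, against 39.2% of all genes tested, and the exceptions were Abca1 and Abcg1. In edgeR's quasi-likelihood test, with Benjamini-Hochberg adjustment over all 13832 genes, 0 of 35 members passed at 0.05, and 0.0% of all genes did. At an unadjusted p under 0.05 there were 22 members, against 13.8% of genes, DESeq2 called 13 members, against 2.6% of genes, and limma-voom called 0 members and 0.0% of genes.

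The median log2 fold change in lung against RM1536 was −1.97 for the sterol enzymes, −1.18 for the fatty acid enzymes, −0.58 for the regulators and transport genes and 0.39 for the LXR targets, beside −0.0323 for all genes. The 18 sterol enzymes had adjusted p values between 0.295 and 0.388 in edgeR. The lowest was Acat2, with a log2 fold change of −3.21 ± 0.92 (SE; edgeR adjusted p = 0.317). Fdps had −3.12 ± 0.90, Idi1 −2.44 ± 0.56, Pmvk −2.42 ± 0.59, Tm7sf2 −2.34 ± 0.57, Hsd17b7 −2.27 ± 0.78, Mvk −2.04 ± 0.62, Hmgcs1 −2.03 ± 0.58 and Mvd −1.99 ± 0.75. Nsdhl had −1.95 ± 0.60, Dhcr7 −1.71 ± 0.54, Lss −1.51 ± 0.55, Cyp51 −1.41 ± 0.33 and Sc5d −1.37 ± 0.46. The remaining 4 sterol enzymes lay between −0.97 (Ebp) and −0.69 (Msmo1).

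In the fatty acid list, Fads2 had a log2 fold change of −2.47 ± 0.68 (SE) in lung against RM1536 and Elovl6 −2.18 ± 0.65, with edgeR adjusted p values of 0.308 and 0.321. Acly had −1.59 ± 0.63, Scd2 −1.46 ± 0.52, Acss2 −1.18 ± 0.48 and Fasn −1.14 ± 0.47. Fads1, a desaturase that acts in the same route as Fads2, had −0.39 ± 0.28. Stard4 had −1.47 ± 0.58, while Srebf2 had −0.26 ± 0.29 and Insig1 −0.26 ± 0.32.

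How far lung lay below RM1536 depended on which RM1536 library was used. Without RM1536 b the sterol median was −1.15 and the fatty acid median −0.56, and without RM1536 a they were −2.40 and −1.58. The median of the proliferation genes was also lowest in lung. The fibroblast marker sum was 657 CPM in lung, of which Col1a1 gave 604, against 80.9 and 56.2 CPM in RM1536 a and b. Pdgfra was also higher in lung, at 28.3 against 12.7 and 6.12 CPM. Col1a2 was lower, at 0.276 against 0.644 and 1.04 CPM, and so was Lum, at 0.118 against 0.885 and 0.259 CPM. Dcn, at 24.3 CPM in lung, lay between RM1536 a (57.8) and b (21.1). The part of all these genes in the result was not tested.

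**Figure D3:**
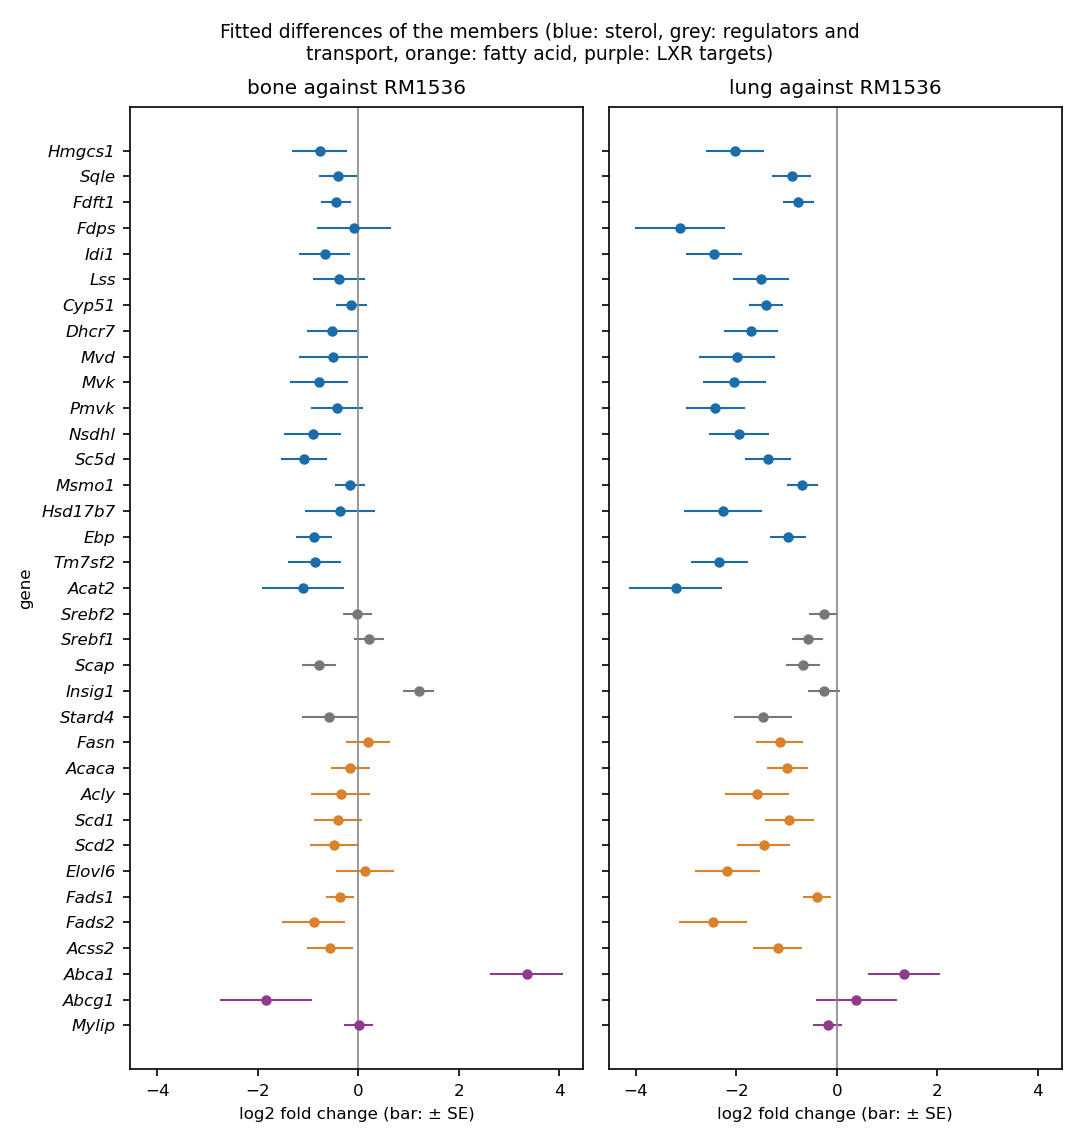
Fitted log2 fold change of each member with its standard error (bar), for bone against RM1536 (left) and lung against RM1536 (right), from the edgeR model of all 6 libraries. In lung all 18 sterol and all 9 fatty acid enzymes lie left of 0, with medians of −1.97 and −1.18, and in bone all 18 sterol enzymes also lie left of 0, with a median of −0.52, while Abca1 (3.35) and Insig1 (1.20) lie farthest right and Abcg1 (−1.84) farthest left.

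In bone the medians of both enzyme lists lay near those of RM1536 a, and Abca1 and Insig1 stood above all other libraries. The question here is how cells recovered from bone compare with the injected line. Bone was the highest of the 6 libraries for those 2 members, against 16.2% of all genes tested, and above both RM1536 libraries for 4 (Srebf1, Insig1, Abca1 and Mylip), against 33.6%. All 18 sterol enzymes had a negative log2 fold change, with a median of −0.52, and 7 of 9 fatty acid enzymes did, with a median of −0.36, beside −0.0261 for all genes. Only 9 of the 18 sterol enzymes and 2 of the 9 fatty acid enzymes lay below both RM1536 libraries, and 13 of all 35 members did, against 35.1% of all genes tested. In edgeR, 0 of 35 members passed at an adjusted p of 0.05, as did 0.0145% of all genes. At an unadjusted p under 0.05 there were 2 members, against 9.92% of genes, DESeq2 called 2 (Abca1 and Insig1), against 2.75% of genes, and limma-voom called 0, against 0.0%.

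Abca1 had a log2 fold change of 3.35 ± 0.72 (SE; edgeR adjusted p = 0.178) in bone against RM1536, and Insig1 had 1.20 ± 0.31 (edgeR adjusted p = 0.256). With each culture library left out in turn, Insig1 lay between 1.16 and 1.26 and Abca1 between 2.70 (without RM1536 b) and 4.60 (without RM1536 a). The other member above both RM1536 libraries among the regulators was Srebf1, with a smaller difference of 264 CPM in bone against 190 and 262 CPM in RM1536. Of the enzymes, Sc5d had −1.08 ± 0.45 (edgeR adjusted p = 0.512), Acat2 had −1.10 ± 0.81 (edgeR adjusted p = 0.762) and Fasn had 0.19. Without RM1536 b the sterol median was 0.02 and the fatty acid median 0.19, and without RM1536 a they were −1.0 and −0.83, so the direction of both medians rests on RM1536 b.

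Bone and lung came from the same mouse, and bone was the higher library for nearly all members. In bone against lung, 33 of 35 members were higher in bone, against 51.6% of all genes tested, and the exceptions were Scap and Abcg1. All 18 sterol enzymes were higher, with a median log2 fold change of 1.26, and all 9 fatty acid enzymes were, with a median of 0.99, beside 0.0205 for all genes. In edgeR, 0 of 35 members passed at an adjusted p of 0.05, as did 0.00723% of all genes. At an unadjusted p under 0.05 there were 8 members, against 8.47% of genes, DESeq2 called 2 (Insig1 and Elovl6), against 1.6% of genes, and limma-voom called 0, against 0.0%.

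In bone against lung, Insig1 had a log2 fold change of 1.46 ± 0.37 (SE; edgeR adjusted p = 0.42), Cyp51 had 1.27 ± 0.36 (edgeR adjusted p = 0.453) and Elovl6 had 2.31 ± 0.70 (edgeR adjusted p = 0.499). Fdps had 3.04 ± 0.96, on 178 counts in bone and 24 in lung. Acat2 had 2.11 ± 0.93, Pmvk 1.99 ± 0.62, Idi1 1.78 ± 0.59 and Fasn 1.33 ± 0.52. A log2 fold change of at least 1 was reached by 13 of the 18 sterol and 4 of the 9 fatty acid enzymes, not all named here. The smallest differences were those of Fads1, at 0.03, and Ebp, at 0.10. Each site is 1 library, so the spread in this test comes from the culture duplicates, and tissue, sorting and regrowth cannot be told apart.

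Averaged over bone and lung, the sterol median against RM1536 was −1.28 and the fatty acid median −0.87, beside −0.0329 for all genes, and 0 of 35 members passed in edgeR, against 0.0289% of all genes. At an unadjusted p under 0.05 there were 17 members, against 13.3% of genes, DESeq2 called 8, against 3.38% of genes, and limma-voom 0, against 0.0%. A log2 fold change of −1 or lower was found for 12 of the 18 sterol and 2 of the 9 fatty acid enzymes, which are not named here. Without RM1536 b the sterol and fatty acid medians were −0.54 and −0.23.

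The labelled line RM1536 had more of the sterol and fatty acid transcripts than RM1 in the median, and libraries overlapped for most members. This comparison asks what differs between the labelled pool of clones and the parental line. The median log2 fold change was 0.77 for the sterol enzymes, 0.61 for the fatty acid enzymes, −0.12 for the regulators and transport genes and 1.61 for the LXR targets, beside 0.0175 for all genes. Both RM1536 libraries were above both RM1 libraries for 11 of 35 members, against 27.2% of all genes tested: Sqle, Fdft1, Cyp51, Nsdhl, Ebp, Scap, Fasn, Acaca, Fads1, Abca1 and Abcg1. Both were below both RM1 libraries for Mylip alone, against 26.9% of all genes.

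In edgeR, 0 of 35 members passed at an adjusted p of 0.05 in RM1536 against RM1, against 5.64% of all genes. At an unadjusted p under 0.05 there were 8 members, against 23.0% of genes, DESeq2 called 3 (Abca1, Abcg1 and Ebp), against 10.6% of genes, and limma-voom called 0, against 6.2%. Nsdhl averaged 118 ± 68.0 CPM in RM1536 and 49.7 ± 16.4 CPM in RM1 (SD, n = 2 each), with a log2 fold change of 1.25 ± 0.45 (SE; edgeR adjusted p = 0.176). Ebp had 1.02 ± 0.28 (edgeR adjusted p = 0.102), Fasn 1.02 ± 0.37 (edgeR adjusted p = 0.174), Mvd 1.18 ± 0.56 (edgeR adjusted p = 0.28) and Acat2 1.18 ± 0.64 (edgeR adjusted p = 0.332). Hmgcs1 pointed the other way, at −0.40 ± 0.43. Without RM1536 b the sterol median was 0.09 and the fatty acid median −0.05, and without RM1536 a they were 1.11 and 1.00. Without RM1 b the medians were 0.43 and 0.38, and without RM1 a they were 0.99 and 0.88.

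None of the 3 LXR targets was both highest in RM1536 b and lowest in lung. Abcg1 was highest in RM1536 b, Mylip was lowest in lung, and Abca1 was neither. Abca1, which exports cholesterol to lipid-poor apolipoproteins, was at 239 CPM in bone, 58.7 in lung, 36.9 and 9.93 in RM1536 a and b, and 9.85 and 5.45 in RM1 a and b. Abcg1, which exports cholesterol to lipoprotein particles, was at 2.85 CPM in bone, 13.5 in lung, 3.82 and 16.6 in RM1536 a and b, and 1.20 and 1.98 in RM1 a and b. Mylip, a ubiquitin ligase that removes lipoprotein receptors, was at 12.5 CPM in bone, 11.0 in lung, 12.3 and 12.5 in RM1536 a and b, and 17.7 and 20.9 in RM1 a and b. Bone was the highest library for Abca1, RM1536 b for Abcg1, and RM1 b for Mylip, so the 3 targets had 3 different orders.

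**Figure D4:**
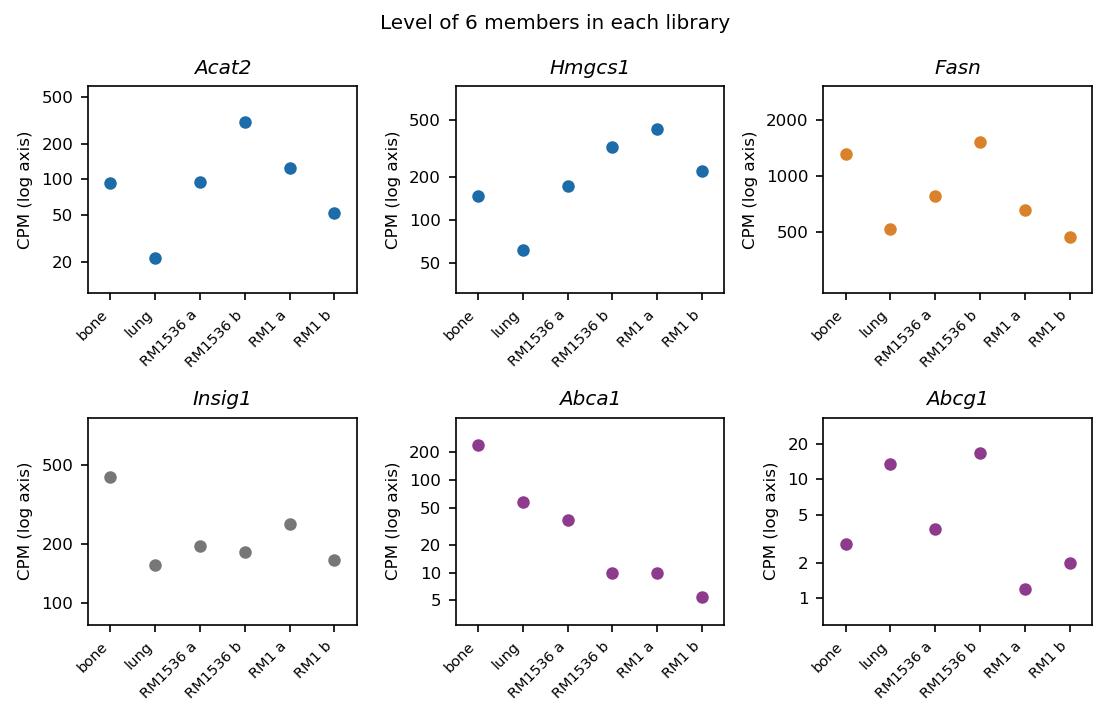
Level in CPM (log axis, a scale of its own for each gene) of Acat2, Hmgcs1, Fasn, Insig1, Abca1 and Abcg1 in each library, 1 point a library. Abca1 is highest in bone (239), then lung (58.7) and RM1536 a (36.9), while Abcg1 is highest in RM1536 b (16.6) and lung (13.5).

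Abca1 was the member with the widest range, at 43.9 times between bone and RM1 b, and the plot of 6 members shows it beside Abcg1 and the enzymes. Its log2 fold change was 1.33 ± 0.72 (SE; edgeR adjusted p = 0.446) in lung against RM1536, 2.03 ± 0.88 (edgeR adjusted p = 0.595) in bone against lung and 1.61 ± 0.63 (edgeR adjusted p = 0.201) in RM1536 against RM1. Abcg1 had −1.84 ± 0.92 (edgeR adjusted p = 0.606) in bone against RM1536, −2.24 ± 1.01 (edgeR adjusted p = 0.598) in bone against lung and 2.68 ± 0.73 (edgeR adjusted p = 0.0966) in RM1536 against RM1. Without RM1536 a, Abcg1 passed in RM1536 against RM1 with an edgeR adjusted p of 0.0298 and a log2 fold change of 3.35, and without RM1536 b it had 1.24 (edgeR adjusted p = 0.292). In bone against RM1536, Abcg1 had −0.42 without RM1536 b and −2.53 without RM1536 a. In RM1536 against RM1, Abca1 had 0.35 without RM1536 a and 2.25 without RM1536 b, and the LXR median was 0.35 and 1.24 in the same order. In lung against RM1536, Abca1 had 2.59 without RM1536 a and 0.69 without RM1536 b. Mylip had −0.64 ± 0.23 (edgeR adjusted p = 0.179) in RM1536 against RM1.

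Outside the 35 members, 32 further genes of these pathways were listed, and 30 passed the filter on low counts. In edgeR, 1 of the 30 passed, in RM1536 against RM1: Acacb, the mitochondrial carboxylase that restrains fatty acid oxidation, fell. It was at 0.22 CPM in bone, 0.237 in lung, 0.121 and 0.291 in RM1536 a and b, and 3.21 and 3.08 in RM1 a and b. Its log2 fold change was −3.87 ± 0.58 (SE; edgeR adjusted p = 0.023) on 3 and 9 counts in RM1536, and without RM1536 a the adjusted p was 0.0665 and without RM1536 b 0.063. Pltp, a phospholipid transfer protein and LXR target, was at 4.83 CPM in bone, 63.3 in lung, 30.0 and 8.54 in RM1536 a and b, and 1.74 and 3.22 in RM1 a and b. It had 2.95 ± 0.66 (edgeR adjusted p = 0.0603) in RM1536 against RM1, where it passed without RM1536 b (3.57, edgeR adjusted p = 0.0405) but not without RM1536 a (1.75, edgeR adjusted p = 0.11), and −3.71 ± 0.94 (edgeR adjusted p = 0.42) in bone against lung. Pltp was higher in lung than in bone, as Abcg1 was, while Abca1 was higher in bone. Of the RM1536 libraries, b had less Pltp than a, as it had less Abca1, while it had more Abcg1.

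Lpcat3, an LXR target that builds polyunsaturated phospholipids, was at 46.3 CPM in bone, 33.4 in lung, 70.2 and 108 in RM1536 a and b, and 92.2 and 92.5 in RM1 a and b. Acat1, the mitochondrial thiolase, was at 68.8 CPM in bone, 72.7 in lung, 140 and 133 in RM1536 a and b, and 120 and 81.7 in RM1 a and b. Both were lower in bone and lung than in all 4 culture libraries, with log2 fold changes in lung against RM1536 of −1.41 ± 0.34 (SE; edgeR adjusted p = 0.297) for Lpcat3 and −0.91 ± 0.31 (edgeR adjusted p = 0.329) for Acat1. In bone against RM1536 they had −0.94 ± 0.33 (edgeR adjusted p = 0.411) and −0.99 ± 0.32 (edgeR adjusted p = 0.363). Erlin1, which takes part in the breakdown of Insig1, was at 51.1 CPM in bone, 144 in lung, 63.2 and 64.9 in RM1536 a and b, and 58.6 and 120 in RM1 a and b. The 30 further genes had a median of −0.14 in lung against RM1536, −0.21 in bone against RM1536, −0.09 in bone against lung and 0.03 in RM1536 against RM1.

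Reads of 10 members could be shared with other genes, since the strand setting is not given in the sources used here and some members have near-identical copies. Fdps shares 26.7% of its exon bases with Gm43738 on the same strand. Fdft1 shares 18.3% of its exon bases with Ctsb on the opposite strand, Scap 13.2% with 5830462I19Rik, Hmgcs1 12.1% with the antisense gene Gm48342 and Tm7sf2 12.1% with Vps51. Acat2 is 97.7% identical to Acat3 over 1477 bases, and to Tcp1, 98.7% over 445 bases. Acat3 did not exceed 0.777 CPM, and Tcp1 lay at 303 to 415 CPM. Idi1, Acaca, Elovl6 and Fdft1 have processed pseudogenes at least 97.4% identical over part of their transcripts, and a stretch of Scd2 is 95.5% identical to Scd1. Without the 6 sterol and 3 fatty acid enzymes among these, the sterol median was −1.61 and the fatty acid median −1.16 in lung against RM1536, −0.47 and −0.39 in bone against RM1536, 1.15 and 0.93 in bone against lung, and 0.75 and 0.64 in RM1536 against RM1.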

How the data were processed

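RNA was sequenced from 6 libraries of sorted and expanded cells (total RNA, NEBNext Ultra libraries, HiSeq2500, per the labels' protocols). The authors deposited raw counts per gene in 1 table, with no normalization. The submitters' processing notes name the genome GRCm38, TopHat2 2.1.10, HTSeq and edgeR. The sources used here give neither the strand setting nor the counting mode or annotation, and reads that fit several genes may have been dropped or assigned to 1 of them. The table has 1 nameless row, with 0.00626% to 0.0083% of a library's counts. It was dropped, leaving 23791 entries.

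Differences were tested on the counts with edgeR 4.0.16 under R 4.3.3, by a quasi-likelihood test in 1 model of 4 groups and all 6 libraries, after TMM scaling and edgeR's own filter on low counts (filterByExpr, by group). Benjamini-Hochberg adjustment ran over the 13832 genes tested, with a call at 0.05. The spread came from the RM1 and RM1536 pairs (2 residual degrees of freedom, biological coefficient of variation 0.269). Bone and lung, with 1 library each, were assumed to vary like them. Replicates a and b differed beyond counting error (chi-square per degree of freedom 97.4 in RM1 and 98.6 in RM1536), and nothing in the labels tells if they were grown apart, so p-values measure only the spread between these libraries, which may be technical.

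CPM values use TMM-scaled totals, with a pseudocount of 1 on the log2 scale. Standard errors of fold changes were derived from the F statistic of the test. Gene positions, exon lengths and overlaps were taken from GENCODE M21 (GRCm38), and near-identical copies from alignments of at least 200 bases at 95% identity or more. Alternatives were DESeq2 1.42.0, limma-voom (limma 3.58.1), other scalings and filters, each culture library left out, and a block for the replicate letter. The fits were also run on simulated counts, drawn gene by gene with the spread fitted here for every library. Such counts cannot show whether bone and lung vary like the culture pairs, or how genes that shift together affect the calls. Full statistics were planned for members called. The same held for members with a log2 fold change of at least 1 in size and a mean of at least 5 CPM. Otherwise they were planned for the 2 members with the smallest p. In bone against lung only some of these members are printed, and for bone and lung averaged none is. Some are printed without an adjusted p. Further pathway genes were named where called or among the 2 with the smallest p in a comparison. The members, the lists and the rules for naming genes were chosen with earlier results of these data known. Some markers are not reported here.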

Additional observations from a re-analysis of the deposited data

How the results depend on the processing

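In all 5 comparisons 0 of 35 members were called with RLE factors, library totals, the filter at a mean of 5 CPM and limma-voom, as in the main result. Without the low-count filter the calls were 13 in RM1536 against RM1, 5 in bone against RM1536, 21 in lung against RM1536, 15 in bone against lung and 21 for bone and lung averaged against RM1536. Without that filter 22081 genes were tested, and 2394, 859, 1299, 754 and 1225 of them were called in the same order. DESeq2 gave 3, 2, 13, 2 and 8 member calls in that order, against 10.6%, 2.75%, 2.6%, 1.6% and 3.38% of genes. With bone and lung as 1 group of 2 libraries, 0 members were called. The LXR median in RM1536 against RM1 was 1.34 with limma-voom, and in lung against RM1536 it was 0.7 with limma-voom.

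With each culture library left out in turn, member calls ranged from 0 to 1 in RM1536 against RM1 and were 0 in the other comparisons. The sterol median ranged from 0.09 to 1.11 in RM1536 against RM1, −1.0 to 0.02 in bone against RM1536, −2.40 to −1.15 in lung against RM1536, 1.24 to 1.26 in bone against lung and −1.79 to −0.54 for the average. The fatty acid median ranged from −0.05 to 1.00, −0.83 to 0.19, −1.58 to −0.56, 0.97 to 0.99 and −1.28 to −0.23 in the same order. The LXR median ranged from 0.35 to 2.07, 0.01 to 0.02, −0.16 to 0.69, 0.17 to 0.19 and −0.08 to 0.71. With 3 genes it is the value of the middle gene, which in bone against RM1536 was Mylip. Abca1 there ranged from 2.70 to 4.60 and Abcg1 from −2.53 to −0.42. In bone against lung no culture library enters the fold change, so beyond small effects of scaling its medians could not move. Their narrow ranges do not measure how firm that comparison is. Leaving out bone or lung removes its comparisons. The causes of these differences were not tested.

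The letters a and b name replicates without pairing them. Over 9879 genes, the difference b minus a in RM1 had a Pearson correlation of −0.522 with that in RM1536. With the letter as a replicate block over the 4 culture libraries, 0 members and 295 genes were called in RM1536 against RM1, against 780 genes without it, the LXR median was 1.38, and Acacb had an adjusted p of 0.0527 (edgeR). With the letters crossed, a pairing chosen after seeing the data, 17 members and 3163 genes were called. Both block fits tested 12964 genes. With the letters crossed the LXR median was 1.37.

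Over all genes, calls in RM1536 against RM1 were 780, against 2394 without a filter, 345 with the filter at 5 CPM, 1471 in DESeq2, and 196 to 513 with 1 culture library left out. In bone against RM1536 they were 2, against 859 without a filter, 380 in DESeq2, and 0 to 128 with 1 culture library left out. In lung against RM1536 they were 0, against 1299, 359, and 0 to 7. In bone against lung they were 1, against 754, 221, and 1 to 32, and for the average 4, against 1225, 467, and 0 to 75. With library totals only, the median of all genes moved to −0.15 in lung against RM1536, 0.108 in bone against lung and −0.106 for the average.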
